A study of Mus musculus with 22 samples.

Results

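The histone genes of the mouse lie in a few dense clusters, and accessibility at these genes was followed here by ATAC-seq, which counts where the Tn5 transposase can enter chromatin, in spermatogonia and in later male germ cells. Members were taken from the RefSeq gene table of GRCm38.p6 by name: a symbol or older synonym starting Hist1h, Hist2h, Hist3h or Hist4h, or a newer symbol made of H1f, H2ac, H2bc, H3c or H4c and a number. This gave 74 of the 49997 genes of the table. They were 64 replication-dependent genes, 3 testis variants (H1f6, formerly Hist1h1t; H2ac1, formerly Hist1h2aa; H2bc1, formerly Hist1h2ba), 4 H1 genes outside the clusters (H1f0, H1f7, H1f8 and H1f10) and 3 pseudogenes. A peak was counted once if it overlapped a member or the 1 kb on either side of it, and 70 of the 96049 deposited peaks did so. Of these peaks, 59 belonged to replication-dependent genes, 3 to testis variants, 7 to the H1 genes outside the clusters and 1 to a pseudogene. A peak is called by the genes it touches, and 29 of the 59 replication-dependent peaks touched more than 1 member.

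The spermatogonia came from C57BL/6 mice aged 8 to 12 weeks that were given tamoxifen, and cells were sorted by flow cytometry on day 7 afterwards. Tamoxifen switches on a Cre recombinase fused to the oestrogen receptor, here to delete TERT, the reverse transcriptase of telomerase. The sample titles separate TERT-hetero libraries (called control here) from TERT-deleted libraries, but both carry the same genotype label, TertCreER/+:Rosalsl-Tdtomato/+. By that label the Cre sits at 1 Tert copy in control and deleted mice alike, next to a Cre-dependent Tdtomato reporter. Only the titles and the library names, tagged Ctrl or CKO, tell the genotypes apart. In each genotype 3 populations were sorted by the surface proteins MCAM and KIT: MCAM-high and KIT-negative (3 control and 3 deleted libraries), MCAM-medium and KIT-negative (2 and 3), and MCAM-medium and KIT-positive (3 and 3). KIT is the receptor that marks spermatogonia committed to differentiation. A further 5 libraries of genotype TertTdtomato/+, titled spermatocytes or round spermatids, are treated as 1 group of later germ cells, because title and library name disagree on the stage for 4 of the 5. These also came from C57BL/6 mice aged 8 to 12 weeks; the protocol text names the tamoxifen for every library, but the later ones carry no time point after it. The labels do not say whether replicates came from separate mice, so the p-values measure the spread between libraries, which may be technical. Library names share the tags Ctrl1 to Ctrl3 or CKO1 to CKO3 across the sorted populations, and all 5 later libraries carry the single tag Het1. The labels do not say what the numbers in these tags mark, and if Het1 is 1 mouse, the later libraries are repeat preparations from it.

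Replication-dependent histone genes supply the core histones H2A, H2B, H3 and H4 and the linker histone H1 to newly made DNA, and are read mainly while DNA is copied. They lack introns, their mRNAs end in a stem-loop instead of a poly(A) tail, and many H2A and H2B genes stand head to head over 1 shared promoter. In the testis a second set of genes is used: H1f6 encodes the linker variant H1t and H2ac1 and H2bc1 encode TH2A and TH2B, which replace part of the somatic histones before protamines take over.

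Promoter sequences show how similar and how divergent the members are. Each printed window runs from 250 bases before to 50 bases after the annotated gene start, 5′ to 3′ on the gene's strand, from RefSeq on GRCm38.p6. Capitals mark matches, on either strand, to the 6 motifs searched: the CCAAT box, the TATA box as TATAAA, the octamer known from H2B promoters (ATTTGCAT), the H1 box (AAACACA), part of the H4 box (GGTCCG) and a cAMP response element (TGACGTCA). The first 4 belong to peaks that were higher in KIT-positive cells (H2aw, H2bc12, H4c9, H1f2), the fifth to the peak that was lower there in both genotypes (H3c6), and the last 2 to the testis variants.
H2aw, chr11:58954435-58954734, plus strand: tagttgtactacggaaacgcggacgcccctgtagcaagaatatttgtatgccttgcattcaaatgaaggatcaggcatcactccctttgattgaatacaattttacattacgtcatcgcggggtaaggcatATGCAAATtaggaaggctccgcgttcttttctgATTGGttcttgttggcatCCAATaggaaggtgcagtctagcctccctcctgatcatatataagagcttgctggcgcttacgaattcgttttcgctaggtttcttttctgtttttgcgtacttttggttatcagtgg
H2bc12, chr13:22035571-22035870, plus strand: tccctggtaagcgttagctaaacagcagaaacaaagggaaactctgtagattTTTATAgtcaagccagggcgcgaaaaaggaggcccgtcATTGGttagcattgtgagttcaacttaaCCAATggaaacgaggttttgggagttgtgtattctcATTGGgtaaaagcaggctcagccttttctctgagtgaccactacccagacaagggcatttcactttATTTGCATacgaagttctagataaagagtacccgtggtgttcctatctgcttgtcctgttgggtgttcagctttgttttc
H4c9, chr13:22041313-22041612, minus strand: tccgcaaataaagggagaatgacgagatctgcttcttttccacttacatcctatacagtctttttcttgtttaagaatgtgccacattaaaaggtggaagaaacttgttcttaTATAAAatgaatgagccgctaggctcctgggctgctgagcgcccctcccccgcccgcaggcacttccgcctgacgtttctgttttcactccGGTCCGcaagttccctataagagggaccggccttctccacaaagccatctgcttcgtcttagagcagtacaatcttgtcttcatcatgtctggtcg
H1f2, chr13:23738557-23738856, plus strand: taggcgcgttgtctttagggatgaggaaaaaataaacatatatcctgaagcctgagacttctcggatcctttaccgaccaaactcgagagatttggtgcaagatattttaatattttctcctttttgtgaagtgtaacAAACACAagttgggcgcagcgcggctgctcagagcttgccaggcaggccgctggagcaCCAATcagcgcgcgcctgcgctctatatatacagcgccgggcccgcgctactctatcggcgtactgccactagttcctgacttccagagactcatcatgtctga
H3c6, chr13:23562336-23562635, minus strand: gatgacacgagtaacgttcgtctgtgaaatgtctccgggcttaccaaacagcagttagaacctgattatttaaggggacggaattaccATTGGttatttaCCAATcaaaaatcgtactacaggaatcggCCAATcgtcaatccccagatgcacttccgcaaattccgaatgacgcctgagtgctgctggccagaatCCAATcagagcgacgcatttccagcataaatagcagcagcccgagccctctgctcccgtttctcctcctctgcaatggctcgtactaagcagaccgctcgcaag
H2ac1, chr13:23934187-23934486, plus strand: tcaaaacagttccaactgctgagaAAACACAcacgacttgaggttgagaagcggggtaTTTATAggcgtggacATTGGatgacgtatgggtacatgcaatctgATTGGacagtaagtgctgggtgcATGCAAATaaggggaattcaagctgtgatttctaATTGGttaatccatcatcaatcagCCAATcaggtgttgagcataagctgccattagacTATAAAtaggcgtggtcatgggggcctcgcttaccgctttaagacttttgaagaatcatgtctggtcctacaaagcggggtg
H1f6, chr13:23695561-23695860, plus strand: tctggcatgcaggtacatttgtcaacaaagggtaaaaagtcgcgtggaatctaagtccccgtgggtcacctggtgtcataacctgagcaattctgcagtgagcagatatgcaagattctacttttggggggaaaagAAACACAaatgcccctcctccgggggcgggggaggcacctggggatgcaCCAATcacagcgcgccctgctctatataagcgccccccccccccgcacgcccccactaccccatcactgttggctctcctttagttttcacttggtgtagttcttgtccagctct

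There were 60 windows for replication-dependent genes, H2bc6 having more than 1, and all 3 testis variants had a window. The CCAAT box stood in 85.0% of the 60 windows, against 37.4% of all 32851 promoter windows of the table, and TATAAA in 55.0% against 13.6%. The octamer, the H1 box and GGTCCG were each most frequent in the windows of 1 or 2 histone types. The octamer was in 35.3% of 17 H2A windows and 37.5% of 16 H2B windows, in none of the H1, H3 or H4 windows, and in 1.74% of all promoters. The H2A and H2B shares are not independent, because windows of head-to-head pairs overlap. At H2ac12/H2bc12 and at H2ac8/H2bc8, 1 octamer is counted for both genes. The H1 box was in 80.0% of 5 H1 windows (7.18% of all promoters) and GGTCCG in 91.7% of 12 H4 windows (8.25% of all promoters), of which 25.0% held CCAAT. TGACGTCA stood in 4 of the 60 windows (6.67%, against 1.79% of all promoters), 1 of an H2A, 1 of an H2B and 2 of H4 genes. The H2A and H2B matches, at H2ac11 and H2bc11, are 1 site that lies in both windows. All 3 testis variant windows hold the CCAAT box and the H1 box. The H1 box of H2ac1 and H2bc1 is 1 site that lies in both windows, at -226 to -220 from the H2ac1 start. H1f6 carries the H1 box at positions -114 to -108 from the gene start and H1f2 at -112 to -106. H4c9 has GGTCCG at -46 to -41. H2ac1 has the octamer, on the opposite strand, at -124 to -117 and TATAAA at -32 to -27, and this window overlaps that of H2bc1, which lies head to head with it under a single peak. H3c6 holds 4 CCAAT matches and no other motif of the 6. A match is a string of letters and not a measured binding site. Some windows are near copies: those of H2bc23 and H4bc24 are identical, and H4c17 and H4c18 share 99.0%. Reads from such copies can be placed on either gene, so single values at multicopy members are uncertain. No peak was listed at H2bc23, H2ac23, H4bc24, H2ac19 or H3c14.

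Each library held between 922085 and 3358377 counts in peaks. Gene-end peaks (touching a gene's start or end or the 1 kb beside it) took 52.2 to 55.6% of counts in KIT-negative, 54.4 to 64.1% in KIT-positive and 51.3 to 55.6% in later libraries. In 3 libraries (control KIT-positive replicate 3, deleted KIT-positive replicate 1 and deleted MCAM-medium replicate 3) over 70% of the counts above 0 were even numbers, against at most 62.5% elsewhere, and each of the 3 had the lowest replication-dependent share of its group; the part this plays in the results was not tested, and counts without the 3 libraries are given beside the main ones. The round spermatid marker list (7 of 8 genes with a gene-end peak) summed to 207 to 261 CPM (counts scaled to a common library size, with TMM factors) in the later libraries and to at most 30.2 in any spermatogonial library, and the spermatocyte list (8 of 8) to 387 to 493 CPM in later and at most 356 in spermatogonial libraries. The undifferentiated list (7 of 7) summed to 220 to 303 CPM in KIT-negative, 225 to 386 in KIT-positive and 96.6 to 127 in later libraries, and in KIT-positive against MCAM-high cells none of its genes was higher and 1 lower in control and 2 higher and none lower in deleted cells. In the differentiating list, which includes Kit, 4 of 5 genes had a gene-end peak, and they summed to 146 to 194 CPM in KIT-positive and 103 to 144 in KIT-negative libraries. Peaks at 4 of 6 Sertoli cell markers summed to 62.7 to 90.5 CPM in KIT-negative and 47.4 to 93.8 in KIT-positive libraries, so those ranges overlapped.

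Replication-dependent histone peaks took a larger share of the library in KIT-positive spermatogonia and the smallest share in later germ cells. In control MCAM-high cells they held 0.126, 0.134 and 0.165% of all counts, and in control MCAM-medium cells 0.14995 and 0.141%. In control KIT-positive cells the shares were 0.232, 0.219 and 0.193%. TERT-deleted libraries gave 0.116, 0.123 and 0.147% (MCAM-high), 0.130, 0.149 and 0.0916% (MCAM-medium) and 0.200, 0.247 and 0.222% (KIT-positive). All 6 KIT-positive libraries lay above all 11 KIT-negative ones. Later germ cells held 0.0737, 0.0737, 0.0715, 0.0650 and 0.0685%, below every spermatogonial library. Without the 3 libraries of mostly even counts, the ranges were 0.116 to 0.165% in KIT-negative and 0.219 to 0.247% in KIT-positive cells. Relative to gene-end peaks alone the KIT-positive and KIT-negative ranges overlapped, with 0.171 to 0.307% in KIT-negative, 0.301 to 0.428% in KIT-positive and 0.127 to 0.139% in later libraries, so control KIT-positive replicate 3, a library of mostly even counts, then lay within the KIT-negative range. In bulk libraries, more cells with open histone genes and more opening per cell cannot be told apart.

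**Figure D1:**
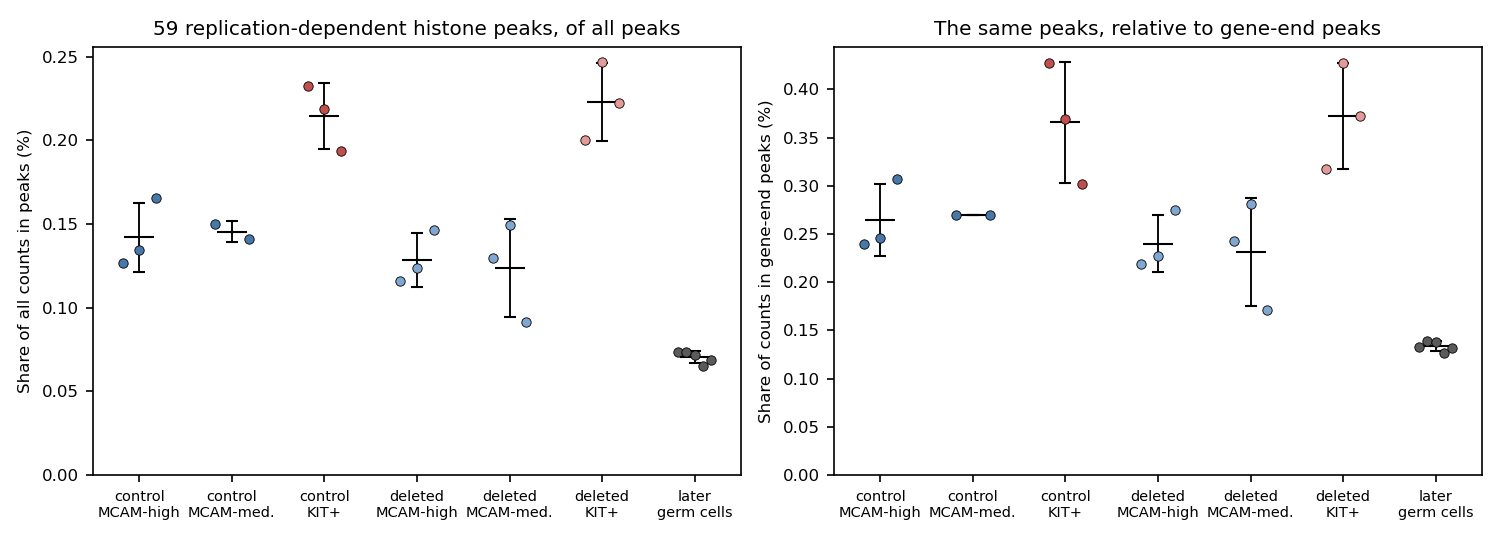
Share of counts in the 59 replication-dependent histone peaks per library, of all counts in peaks (left, %) and of counts in gene-end peaks (right, %). Points are libraries, bars are the group mean and SD. On the left the KIT-positive libraries (0.193 to 0.247%) lie above the KIT-negative ones (0.0916 to 0.165%), and later germ cells lie lowest in both panels.

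The first comparison asked what differed at histone genes between control KIT-positive and MCAM-high spermatogonia. Of 52 replication-dependent peaks that passed the filter on low counts, 16 were higher in KIT-positive cells and 2 lower at an adjusted p under 0.05 (edgeR quasi-likelihood test, Benjamini-Hochberg over all 57289 peaks tested). Over all peaks tested 9.64% were higher and 6.11% lower, and over gene-end peaks 13.7% and 4.17%. The median log2 fold change was 0.51 over the histone peaks, -0.05 over all peaks and 0.18 over gene-end peaks. The median of all peaks moved to -0.22 when libraries were scaled by total counts without TMM, and then 14 histone peaks were higher and 7 lower, beside 4067 higher and 5005 lower of all 57289. Without the 3 libraries of mostly even counts 13 were higher and 2 lower, beside 2819 and 2251 of all 57356 peaks then tested.

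Among H2A and H2B genes, the peak at H2aw and the pseudogene H2bu1-ps, in the small Hist3 cluster, changed most. It measured 32.2, 34.5 and 28.9 CPM in control MCAM-high libraries and 43.1 and 40.3 in MCAM-medium libraries. In KIT-positive libraries it measured 177, 175 and 186 CPM, a log2 fold change of 2.50 ± 0.23 (SE; adjusted p = 6.0e-11, edgeR). The groups did not overlap and lay far apart. The other Hist3 gene, H2bu2, an H2B gene, rose from 30.4, 19.9 and 31.0 CPM to 84.6, 73.7 and 68.7 CPM (log2 1.49 ± 0.27; edgeR adjusted p = 1.1e-04). The head-to-head pair H2ac14/H2bc14, of which H2ac14 is annotated as a pseudogene, went from 50.3, 53.5 and 44.1 CPM to 135, 126 and 150.5 CPM (log2 1.49 ± 0.23), and the pair H2ac11/H2bc11 from 41.6, 54.4 and 70.4 CPM to 159, 121 and 175 CPM (log2 1.48 ± 0.22). At H2ac12/H2bc12, whose promoter is printed above, the rise was smaller: MCAM-high libraries spread from 45.1 to 95.7 CPM and KIT-positive ones from 108 to 119 CPM (log2 0.70 ± 0.23; edgeR adjusted p = 0.0288). Over the 12 tested peaks that touched H2A and H2B genes and no other type, 4 were higher and 1 lower.

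Of the H4 genes, which encode a core histone of 1 invariant sequence, H4c9 gave 22.4, 29.4 and 15.8 CPM in MCAM-high cells and 80.1, 77.8 and 112 CPM in KIT-positive cells (log2 2.01 ± 0.27; edgeR adjusted p = 7.8e-07). The peak spanning H4c1 and the H3 gene H3c1 rose from 35.3, 36.3 and 59.9 CPM to 146, 165 and 148 CPM (log2 1.83 ± 0.24). Both sets of libraries were well separated. H4c12 (log2 1.58 ± 0.37) and H4c11 peak 2 (log2 1.18 ± 0.26) rose too, and of the 16 tested peaks touching an H4 gene 5 were higher, none was lower and 14 had a positive estimate. The windows of H4c11 and H4c12 share 87.0% of their bases, so these peaks are not wholly separate measurements.

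H3 genes moved in both directions. H3c11 peak 2, just beside the gene, rose from 6.64, 3.45 and 3.68 CPM to 24.7, 18.7 and 26.7 CPM (log2 2.32 ± 0.48), and H3c10/H2ac13 rose by 1.35 ± 0.41. The latter call was lost in 3 of the fits that left out 1 library. H3c6 instead fell, from 18.9, 19.9 and 27.9 CPM to 6.74, 8.30 and 8.30 CPM, without overlap (log2 -1.49 ± 0.38; edgeR adjusted p = 0.00456). The second peak that fell was the H2A/H2B pair H2ac8/H2bc8, from 26.6, 41.0 and 39.9 CPM to 18.0, 13.5 and 11.3 CPM (log2 -1.32 ± 0.35; edgeR adjusted p = 0.00642). That call was lost without control KIT-positive replicate 3 (edgeR adjusted p = 0.0582). The number of lower peaks depended on single libraries: it was 6 without control KIT-positive replicate 1 and 1 without replicate 3.

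Of the linker histone genes, H1f1 and H1f2 were higher. H1f1 rose from 30.4, 28.9 and 33.6 CPM to 97.3, 59.2 and 83.5 CPM (log2 1.38 ± 0.24; edgeR adjusted p = 7.2e-05), and H1f2 from 66.1, 75.1 and 104 CPM to 111, 131 and 135 CPM (log2 0.64 ± 0.22; edgeR adjusted p = 0.0350). H1f5, named after its value was seen, had a negative estimate that did not pass (log2 -1.06 ± 0.39; edgeR adjusted p = 0.0585). In all, 2 of the 6 tested peaks at H1 genes were higher and none was lower.

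**Figure D2:**
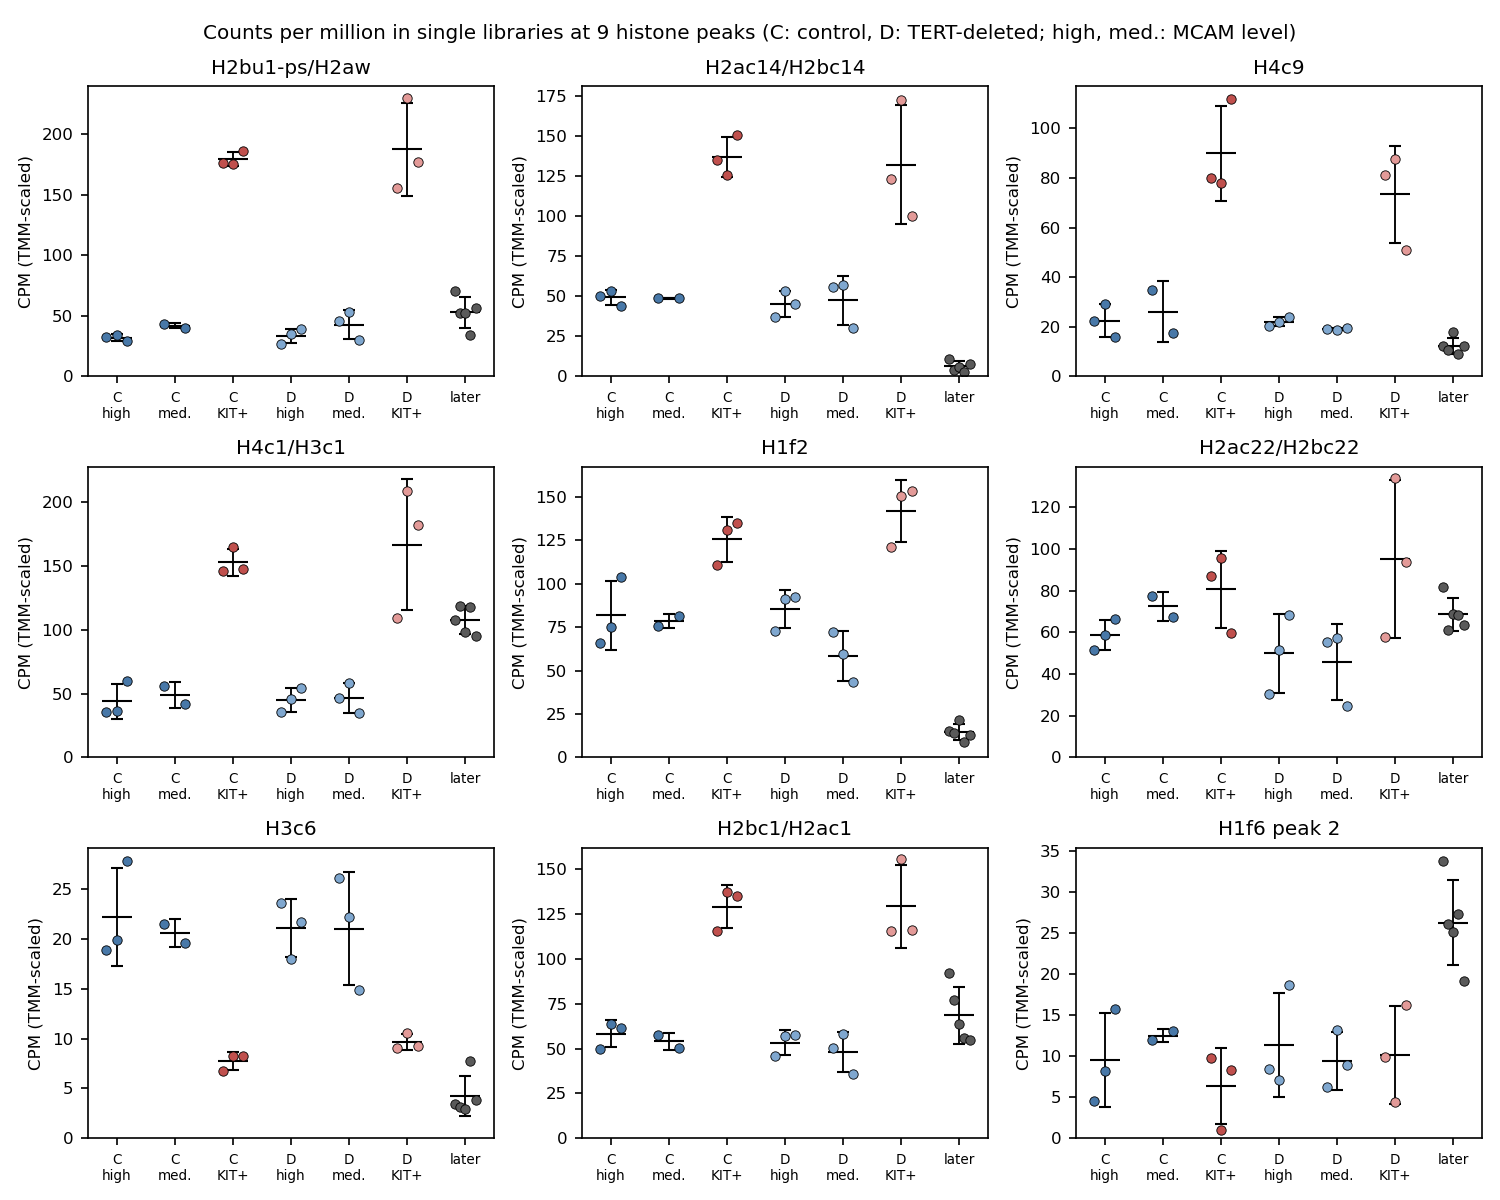
TMM-scaled CPM of 9 histone peaks in each of the 22 libraries, by group; points are libraries, bars the group mean and SD, and each panel has its own axis from 0. H2bu1-ps/H2aw, H2ac14/H2bc14, H4c9 and H4c1/H3c1 are high in both KIT-positive groups, H3c6 is lower there than in KIT-negative groups (6.74 to 10.6 CPM), and H1f6 peak 2 is highest in later germ cells (19.2 to 33.7 CPM).

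Along the Hist1 cluster the change was uneven. The cluster's tested peaks fall into stretches separated by gaps of over 100 kb. In the stretch from H2bc13 to H2ac24, 6 of 14 replication-dependent peaks were higher (median log2 1.29), and in that of H2ac12, H4c9 and H2ac11 all 3 were (median 1.48). In the stretch from H4c8 to H1f1, 4 of 25 were higher and 2 lower (median 0.26). Inside it, the run from H3c8 to H4c3, picked out after its values were seen and so given without a test, held 15 tested peaks with none higher, 2 lower and a median of -0.23. The other 27 Hist1 peaks had 13 higher, none lower and a median of 1.04. In TERT-deleted cells the run had 1 peak higher (H2ac6/H2bc4) and 1 lower (H3c6) of 15 with a median of -0.13, and the other 27 had 16 higher, none lower and a median of 1.10. These values describe the run and are no separate test of it. In the smaller clusters, both Hist3 peaks and the single Hist4 peak (H4f16, log2 0.95 ± 0.26) were higher, and of 7 tested Hist2 peaks none passed (median -0.20). The Hist2 group included H3c15, at log2 1.07 ± 0.40 (edgeR adjusted p = 0.0582).

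**Figure D3:**
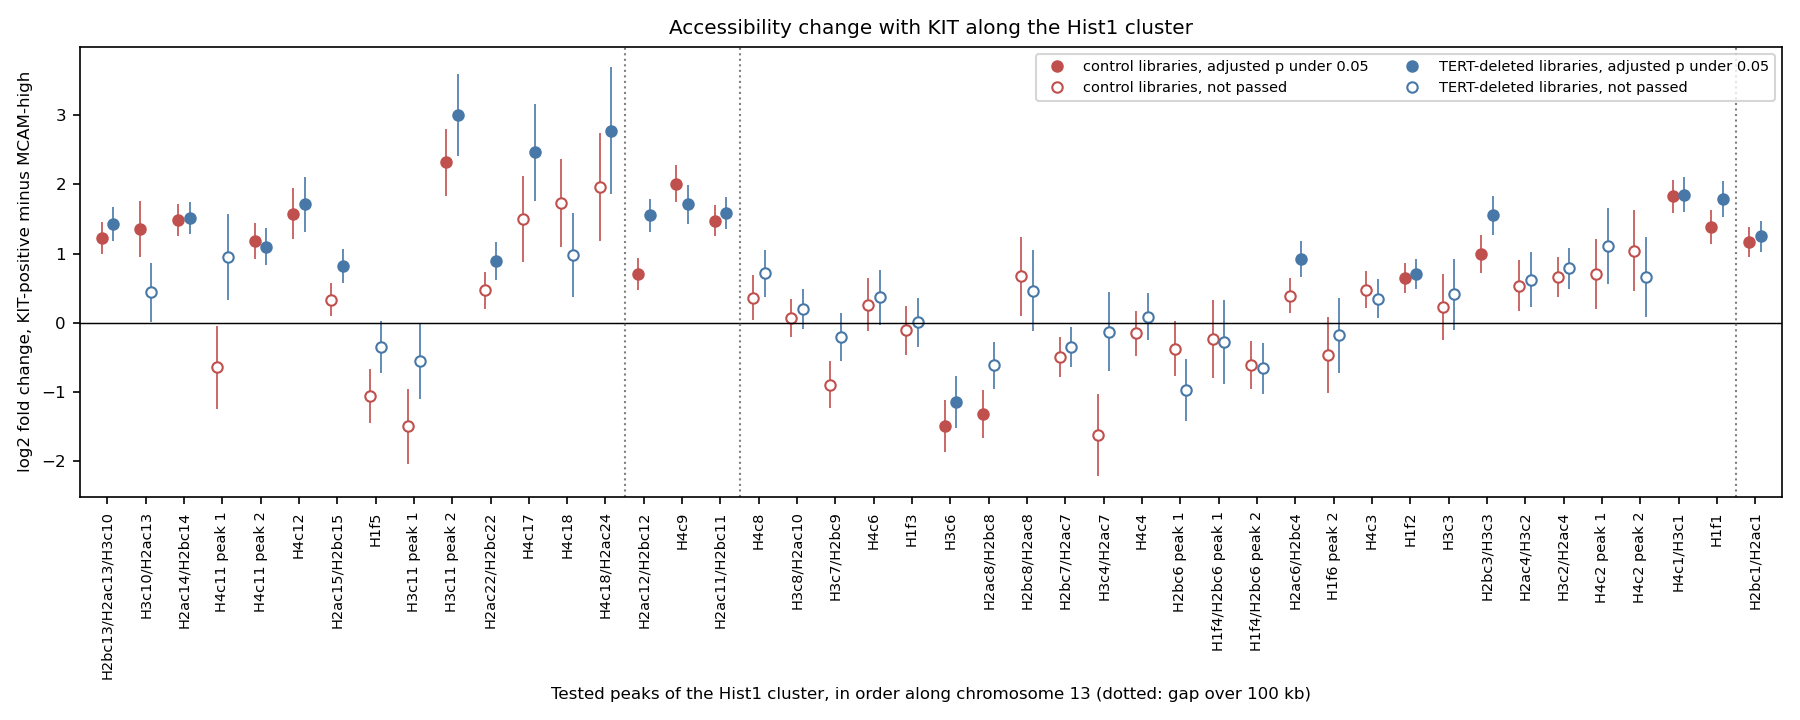
Log2 fold change (KIT-positive minus MCAM-high) of the tested Hist1 peaks in chromosomal order, for control (red) and TERT-deleted (blue) libraries; bars are 1 SE, filled points passed an adjusted p under 0.05, and dotted lines mark gaps over 100 kb. Of the 27 peaks outside the H3c8 to H4c3 run 24 estimates are above 0 in control and 25 in deleted cells, and of the 15 inside it 5 and 7 are, with H3c6 at -1.49 and -1.14. The run was picked out after its values were seen.

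The KIT-positive cells were also set against the other KIT-negative population, and the KIT-negative populations against each other. Against control MCAM-medium cells, control KIT-positive cells had 12 replication-dependent peaks higher and 2 lower of 52 (5.70% and 3.62% of all peaks tested, 7.86% and 2.23% of gene-end peaks), with a median of 0.62 (all peaks -0.04). This comparison shares the KIT-positive libraries with the previous one. The largest estimates were H3c11 peak 2 (2.36 ± 0.57), H4c17 (2.28 ± 0.77), H2bu1-ps/H2aw (2.12 ± 0.26) and H4c9 (1.80 ± 0.31), and H2ac8/H2bc8 (-1.55 ± 0.37) and H3c6 (-1.39 ± 0.41) were again lower. H3c15, an H3 gene of the Hist2 cluster, passed here (1.75 ± 0.49; edgeR adjusted p = 0.0162). Of 12 alternative fits, H4c17 lost its call in 10, H3c6 in 6 and H3c15 in 5. The count of higher peaks fell to 7 without control MCAM-medium replicate 1, which leaves 1 library in that group. Between control MCAM-medium and MCAM-high cells edgeR and DESeq2 called none of the 52 (background 0%), none reached an unadjusted p under 0.05, and the median was -0.07. The smallest p belonged to H2ac6/H2bc4 (log2 0.49 ± 0.28; edgeR adjusted p = 1.0), followed by H4c14 peak 2 (-0.77 ± 0.49) and H2bu1-ps/H2aw (0.39 ± 0.25).

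TERT-deleted cells gave the same contrast from libraries not used above. Deleted KIT-positive cells had 20 replication-dependent peaks higher than deleted MCAM-high cells and 1 lower of 52, against 9.39% and 4.35% of all peaks tested and 12.9% and 3.13% of gene-end peaks, and the median was 0.73 (all peaks -0.05). Without the libraries of mostly even counts 19 were higher and 0 lower. H2bu1-ps/H2aw went from 27.0, 34.7 and 38.8 CPM to 156, 229.9 and 178 CPM (log2 2.45 ± 0.23; edgeR adjusted p = 5.8e-10), and H4c1/H3c1 from 35.5, 45.6 and 54.3 CPM to 109, 209 and 182 CPM (log2 1.85 ± 0.25). H2ac12/H2bc12 rose from 42.2, 48.2 and 55.8 CPM to 129, 164 and 144 CPM (log2 1.56 ± 0.24). All of these groups were separate. H3c6 was again lower (23.6, 18.0 and 21.7 CPM against 9.04, 10.6 and 9.30 CPM; log2 -1.14 ± 0.38; edgeR adjusted p = 0.0341).

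Of the 16 peaks higher in control KIT-positive cells, 15 were also higher in deleted ones, which is 93.8% of the control calls and 75% of the 20 deleted calls. Control-only was H3c10/H2ac13 (deleted log2 0.44 ± 0.42). Deleted-only were H2ac15/H2bc15, H2ac22/H2bc22, H4c17, H4c18/H2ac24 and H2ac6/H2bc4, whose control estimates were 0.33, 0.47, 1.4996, 1.96 and 0.39. Of these, H4c18/H2ac24 lost its call in deleted cells in 5 of 11 alternative fits and H4c17 in 2 of 13. Being called in 1 genotype only does not show a difference between genotypes, and the test of that difference is given next. Over all 57289 peaks tested the shared calls were 60.5% of the control and 62.1% of the deleted calls, and over gene-end peaks 63.0% and 66.9%. Across the 52 histone peaks the fold changes of the genotypes had the same sign at 48 (92.3%, against 75.02% of all peaks and 76.4% of gene-end peaks) and a Pearson r of 0.89, against 0.65 over all peaks and 0.65 over gene-end peaks. These are descriptions over peaks that share libraries within each genotype, and both contrasts came from 1 fit.

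The deletion itself was then compared within each population. No replication-dependent peak of 52 was called by edgeR or DESeq2 in MCAM-high, MCAM-medium or KIT-positive cells, in the mean over the 3 populations, or in the difference of the deletion effect between KIT-positive and MCAM-high cells. At an unadjusted p under 0.05 edgeR had 1, 4, 0, 0 and 1 of them. Few peaks passed anywhere: 0.0489% of all peaks tested were higher and 0% lower in MCAM-high cells, 0.00873% and 0% in MCAM-medium cells, 0.00175% each way in KIT-positive cells, 0.103% and 0.0209% in the mean and 0% in the difference. Of gene-end peaks, 0.0104% were higher in MCAM-high cells, 0.0261% higher and 0.0104% lower in the mean, and 0% elsewhere. Median histone log2 fold changes were -0.19, -0.10, 0.07 and -0.08, and 0.17 for the difference, against -0.04, 0.02, -0.00, -0.01 and 0.04 over all peaks. In MCAM-high cells 11 of the 52 estimates were positive, and in MCAM-medium cells 18. The share of positive estimates over all peaks is not given here, and the peaks share libraries and scaling. No shift of the histone peaks as a set can therefore be read from these counts.

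The single peaks with the smallest p differed by population. In MCAM-high cells it was H2ac12/H2bc12, at 45.1, 74.7 and 95.7 CPM in control and 42.2, 48.2 and 55.8 in deleted libraries (log2 -0.55 ± 0.24; edgeR adjusted p = 0.759), with overlapping groups. This peak also had the smallest p for the difference between KIT-positive and MCAM-high cells (0.85 ± 0.33; edgeR adjusted p = 0.913). In MCAM-medium cells it was H2ac8/H2bc8, at 49.5 and 34.3 CPM in control and 26.1, 29.1 and 8.20 in deleted libraries (log2 -0.98 ± 0.35; edgeR adjusted p = 1.0). In KIT-positive cells and in the mean it was H2bc6 peak 1, inside the long H2bc6 gene model (-0.86 ± 0.45 and -0.44 ± 0.25; edgeR adjusted p = 1.0 and 0.947). H2bu1-ps/H2aw, the peak with the largest change between control KIT-positive and MCAM-high cells, had a mean deletion effect of 0.04 ± 0.14. An adjusted p over the threshold does not show that the genotypes were alike, and the SE of 0.14 at this high-count peak against 0.25 at H2bc6 peak 1 shows how precision varied.

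The genes that serve histone supply were read from a list of 60 in 3 groups: transcription and processing of histone mRNA, chaperones, and replication-independent variants. A gene-end peak was tested for 58 of them (Macroh2a2 and the H3.3 gene H3f3b had none), and 2 of the list, H1f0 and H1f10, are also histone members described at the end. For each gene it was the gene-end peak with the highest mean count. The shares of gene-end peaks given beside the list cover all such peaks, weaker ones included, so the 2 are not matched for signal strength. In control KIT-positive against MCAM-high cells 32 of 58 were higher and 1 lower, with a median of 0.76, against 13.7% and 4.17% of gene-end peaks. By group these were 16 higher of 27 for transcription and processing, 11 higher and 1 lower of 22 for chaperones, and 5 higher of 9 for variants. Npat, the cyclin E-CDK2 substrate that activates histone genes, went from 59.6 ± 8.21 to 111 ± 28.1 CPM (SD, n = 3 each; log2 0.92 ± 0.23; edgeR adjusted p = 0.00369). Casp8ap2 (FLASH), its partner in the histone locus body, went from 86.1 ± 8.12 to 168 ± 56.5 CPM (log2 0.98 ± 0.22), and Slbp, which binds the stem-loop, from 104 ± 25.9 to 174 ± 53.3 CPM (log2 0.76 ± 0.23). The Slbp libraries overlapped (75.2 to 125 against 120 to 226 CPM), and its call was lost in 6 of 13 alternative fits and that of Npat in 1, with loess offsets. Lsm11 of the U7 particle that cuts the mRNA (1.65 ± 0.30), the H2A variants H2ax (1.75 ± 0.20) and H2az1 (1.38 ± 0.27), the methylphosphate capping enzyme Mepce (1.75 ± 0.22) and Tonsl, which reads new H4 behind the fork (1.79 ± 0.32), were all higher too.

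The same list had 33 of 58 higher and 0 lower in deleted KIT-positive against deleted MCAM-high cells (median 0.84), against 12.9% and 3.13% of gene-end peaks, and there Casp8ap2 (1.14 ± 0.22) and Slbp (1.18 ± 0.23) passed and Npat (0.64 ± 0.23; edgeR adjusted p = 0.0527) did not. Against control MCAM-medium cells 21 were higher and 0 lower (7.86% and 2.23% of gene-end peaks). No list gene was called in a deletion contrast. In later germ cells against control KIT-positive cells 33 were lower and 6 higher (26.1% and 25.6% of gene-end peaks), with a median of -0.67. The lower ones included Npat (-0.70 ± 0.20), Casp8ap2 (-0.98 ± 0.19), Slbp (-0.84 ± 0.20), the H2A.Z chaperone Anp32e (-2.53 ± 0.28) and the S-phase factor E2f3 (-2.11 ± 0.20), whereas H2az1 did not pass (-0.17 ± 0.23). The Npat call was lost with loess offsets. Peaks at these gene ends can be shared with a neighbouring gene.

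The testis variants did not follow one pattern. The single peak over the H2bc1 and H2ac1 start sites (TH2B and TH2A) was higher in KIT-positive spermatogonia, with 49.6, 63.5 and 61.5 CPM in control MCAM-high, 57.3 and 50.6 in MCAM-medium and 115, 137 and 135 in KIT-positive libraries. The log2 fold change from MCAM-high was 1.17 ± 0.22 (edgeR adjusted p = 1.5e-04), and in deleted libraries 1.25 ± 0.22 (edgeR adjusted p = 1.2e-04), from 45.6, 57.1 and 57.4 to 116, 156 and 116 CPM. In later germ cells it measured 92.4, 76.8, 63.5, 55.8 and 54.8 CPM, lower than in KIT-positive cells without overlap (log2 -0.93 ± 0.20; edgeR adjusted p = 1.2e-04).

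The 2 peaks at H1f6 (H1t), 1 over the gene start and 1 just upstream of it, were highest in later germ cells. H1f6 peak 2, over the start, gave 4.54, 8.20 and 15.8 CPM in control MCAM-high and 9.73, 1.04 and 8.30 in KIT-positive libraries, which overlapped (log2 -0.46 ± 0.55; edgeR adjusted p = 0.622). In later germ cells it gave 33.7, 26.0, 25.1, 27.3 and 19.2 CPM, all above every spermatogonial library (log2 1.93 ± 0.42 against KIT-positive; edgeR adjusted p = 1.2e-04). H1f6 peak 1 had too few counts to be tested among spermatogonia, where it reached at most 5.91 CPM. It measured 14.2, 8.05, 14.03, 11.7 and 9.86 CPM in later germ cells (log2 3.42 ± 0.83; edgeR adjusted p = 4.8e-04), a call that was lost with loess offsets (edgeR adjusted p = 0.160). No deletion contrast called a testis variant, and the mean effects were -0.11 ± 0.13 at H2bc1/H2ac1 and 0.14 ± 0.32 at H1f6 peak 2.

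In later germ cells most replication-dependent histone peaks were less accessible than in control KIT-positive spermatogonia. The later libraries differ from them in genotype and cell type at once and, by the missing time point, may differ in treatment, and the effects of these cannot be told apart. The comparison also uses the same KIT-positive libraries as the control comparisons above, so these results are not independent of those. Of 55 tested peaks 36 were lower and 3 higher, where 22.8% of all 73134 peaks tested were lower and 29.2% higher (26.1% and 25.6% of gene-end peaks). The median was -1.82, also with the peak at 0 counts set to its bound, against 0.12 over all peaks. Without the library of mostly even counts 34 were lower and 2 higher.

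H2ac14/H2bc14, at 135, 126 and 150.5 CPM in KIT-positive cells, gave 10.8, 3.72, 5.91, 2.60 and 7.67 CPM in later cells (log2 -4.40 ± 0.26; edgeR adjusted p = 9.8e-21). H2ac12/H2bc12 gave 7.64, 10.5, 6.65, 4.54 and 8.77 CPM there (log2 -3.92 ± 0.26), and H1f2 14.9, 14.2, 21.4, 9.09 and 12.6 CPM (log2 -3.15 ± 0.23). No later library came near a KIT-positive one at these peaks. H4c11 peak 2 (-3.74 ± 0.30), H3c11 peak 2 (-3.66 ± 0.49), H2bc8/H2ac8 (-3.45 ± 0.65), H2bc6 peak 1 (-3.42 ± 0.55), H4c12 (-3.34 ± 0.44), H2bc3/H3c3 (-3.33 ± 0.29) and H2bc13/H2ac13/H3c10 (-3.19 ± 0.25) complete the largest decreases. H4c18/H2ac24 had 0 counts in the 5 later libraries and 37 in the 3 KIT-positive ones, at least 28.5-fold lower when 3 counts over the group are taken as the floor. H4c17 had 3 counts against 39, a ratio of 30.0 between KIT-positive and later cells with an exact 95% interval of 9.55 to 152, which covers counting error only. The promoter windows of H4c17 and H4c18 are near copies, so reads can be placed on either gene. How such reads were handled is not given, so both decreases are uncertain in size and may not be separate measurements.

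Other histone peaks kept more of their signal. H4c1/H3c1 measured 108, 119, 98.2, 118 and 95.3 CPM in later cells, between the 35.3 to 59.9 CPM of control MCAM-high and the 146 to 165 CPM of KIT-positive libraries (log2 -0.53 ± 0.20; edgeR adjusted p = 0.0204). H2bu1-ps/H2aw fell to between 34.4 and 70.1 CPM (log2 -1.77 ± 0.20) and H2ac11/H2bc11 to between 34.0 and 60.8 CPM (log2 -1.63 ± 0.21), ranges that overlap their own MCAM-high values. H4c8 and H4c3, named after their values were seen, did not pass (log2 0.01 ± 0.28 and -0.43 ± 0.24). The 3 higher peaks were H2bc22/H2ac22 and 2 peaks of the Hist2 group around H2ac20, H2ac21 and H2bc21, also named for their values. H2bc22/H2ac22 measured 4.49, 2.08 and 1.19 CPM in KIT-positive and 20.1, 23.5, 22.9, 14.9 and 23.0 CPM in later libraries (log2 2.99 ± 0.54; edgeR adjusted p = 7.0e-06). This peak lies inside the long H2bc22 gene model and reaches H2ac22 only through the 1 kb flank. The neighbouring peak H2ac22/H2bc22, which overlaps both genes, did not pass (-0.25 ± 0.21). H2ac21/H2ac20/H2bc21 rose by 1.63 ± 0.48, and H2bc21/H2ac20/H2ac21 had 73 counts in later against 2 in KIT-positive cells, a ratio of 15.8 with an exact 95% interval of 4.22 to 133 (counting error only). Both rises are relative to low control KIT-positive values. The first peak measured 9.09 to 18.5 CPM in later libraries, overlapping its control MCAM-high (8.04 to 13.7) and MCAM-medium values (16.5 and 13.6). The second measured 7.12 to 9.6 CPM in later libraries and 3.49 to 5.26 in control MCAM-high ones. In deleted KIT-positive replicates 2 and 3 it measured 5.61 and 6.2 CPM, so the ratio holds for control KIT-positive cells only. Of the 9 tested Hist2 peaks 2 were higher and 3 lower, with a median of 0.61. In Hist1 the H3c8 to H4c3 run, where no peak was called higher in control KIT-positive than in MCAM-high cells, had 10 lower and none higher of 15 (median -1.96), and the other peaks 20 lower and 1 higher of 28 (median -2.29). By type, 5 of 6 peaks at H1 genes, 14 of 22 at H2A, 16 of 23 at H2B, 11 of 16 at H3 and 11 of 17 at H4 genes were lower.

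**Figure D4:**
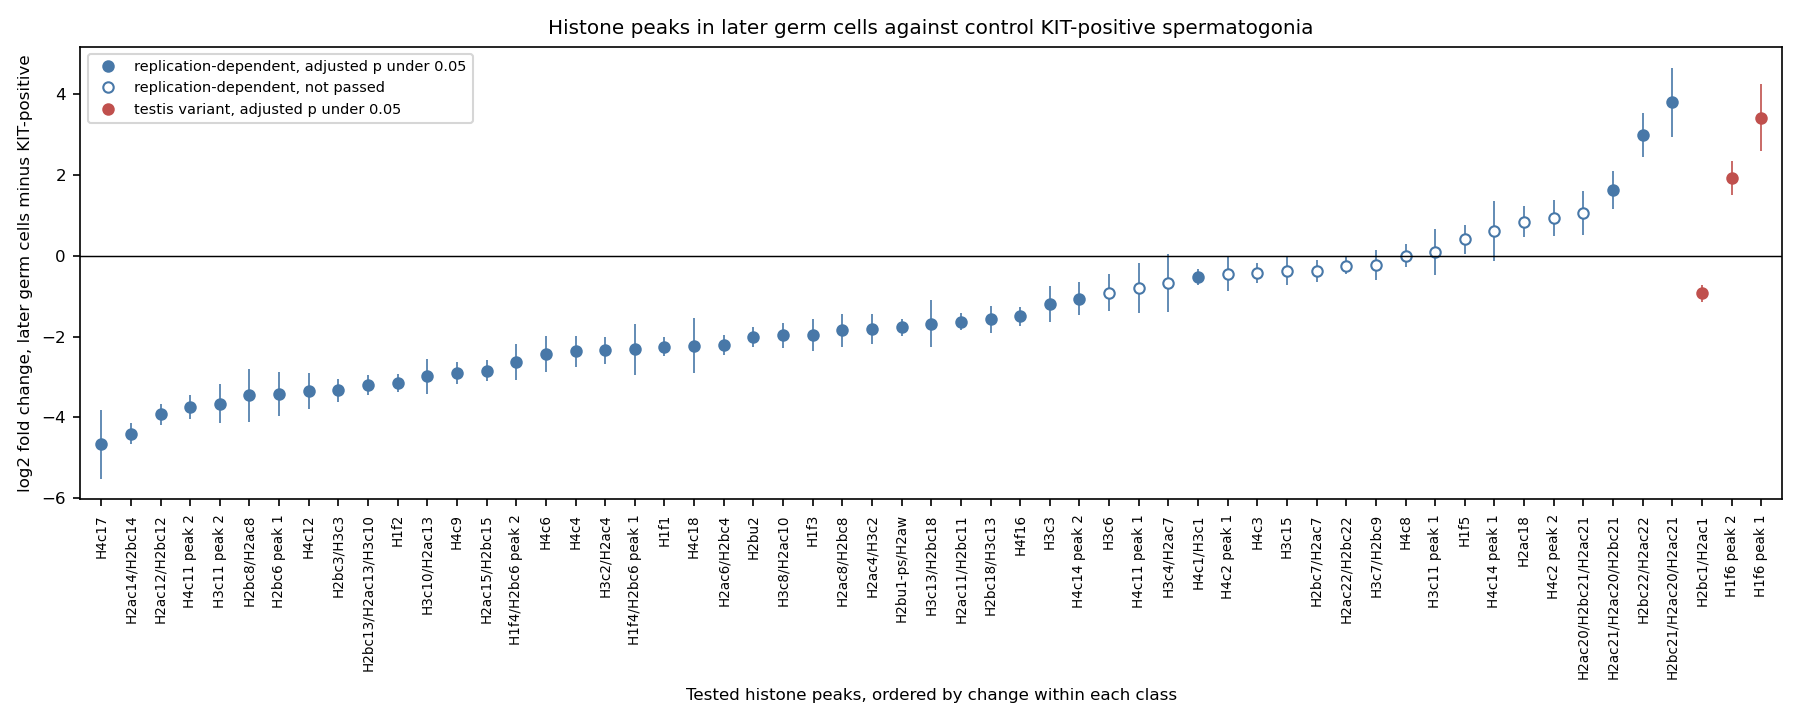
Log2 fold change of later germ cells minus control KIT-positive spermatogonia for the tested replication-dependent (blue) and testis variant (red) peaks; bars are 1 SE and filled points passed an adjusted p under 0.05. H4c18/H2ac24, with 0 counts in later cells, is not drawn, and H4c17 and H2bc21/H2ac20/H2ac21 rest on 3 and 2 counts in 1 group. Of the replication-dependent peaks, 36 were lower and 3 higher, and both H1f6 peaks lie above 0.

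The H1 genes outside the clusters, which are not tied to DNA replication, formed a mixed set. H1f10, a linker histone of many tissues, rose at peak 1 from 5.94, 5.18 and 11.04 CPM in control MCAM-high to 41.9, 35.3 and 33.2 CPM in KIT-positive libraries (log2 2.35 ± 0.40; edgeR adjusted p = 5.4e-05) and was higher still there in later cells, at 45.8 to 69.98 CPM (log2 0.65 ± 0.28; edgeR adjusted p = 0.0454). Its peaks 2 and 3 did not show this later rise. They measured 5.91 to 15.3 and 8.05 to 23.6 CPM in later libraries, against 8.30 to 27.8 and 18.7 to 31.4 CPM in control KIT-positive ones. H1f0, a linker histone of resting and differentiated cells, was higher in KIT-positive cells at peaks 1 and 2 (1.67 ± 0.38 and 1.37 ± 0.39). Peak 3 measured 12.6 to 24.1 CPM in control MCAM-high and 24.7 to 30.8 CPM in control KIT-positive libraries. In later cells peak 3 was called lower than in control KIT-positive cells, at 5.48 to 9.74 CPM (log2 -2.01). H1f7, which encodes the spermatid linker histone H1T2, did not pass among control spermatogonia (0.43 ± 0.53), and in later cells measured 51.7, 47.1, 56.1, 48.7 and 53.7 CPM against 7.49, 13.5 and 7.11 in KIT-positive cells (log2 2.49 ± 0.33; edgeR adjusted p = 1.0e-08). Of the 7 peaks at these genes, 4 were higher in control and 3 in deleted KIT-positive against MCAM-high cells, and in later cells 2 were higher and 2 lower than in control KIT-positive cells. Over gene-end peaks, 13.7% were higher in the control and 12.9% in the deleted comparison. In later cells 25.6% of gene-end peaks were higher and 26.1% lower, so the later counts at these genes lay near the background. No peak was listed at H1f8, the oocyte linker histone.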

How the data were processed

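ATAC-seq of 22 mouse germ cell libraries was read from 1 matrix of counts per peak deposited by the authors. The submitters' processing notes name FastQC, Bowtie2, SAMtools and Picard and the builds mm10, GRCm38 and hg19, without roles or versions. The peak caller, filters, Tn5 offset and counting tool are not given in the sources used here, and deposited starts were used as they stand. Genes and promoters came from RefSeq GRCm38.p6, and 66 of 74 members had a promoter window. Counts were fitted with edgeR 4.0.16 (R 4.3.3; filterByExpr by group, TMM, quasi-likelihood test, Benjamini-Hochberg over all peaks tested), with 17 spermatogonial libraries in 1 fit and 13 heterozygous libraries in another; the procedure was tested on simulated data. CPM shown are TMM-scaled over all 22 libraries. ± after a log2 value is the SE of the fit, computed from the F statistic.

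Members and lists were chosen with earlier results of these data known. Named peaks were, by rule, the testis variants, up to 12 called replication-dependent peaks with the largest change per contrast, the 6 with the highest mean CPM in spermatogonia and, where none was called, the 3 with the smallest p; for the supply list, Npat, Casp8ap2, Slbp, H2az1 and H3f3b and up to 6 called genes per contrast. Others are marked as named after their values were seen; the H1 genes outside the clusters and the Hist4 peak are given as whole classes. Same-numbered libraries of 1 genotype correlated between -0.42 and 0.05 in their deviations from group means, and across genotypes between -0.09 and 0.09. In groups this small the deviations depend on each other, and those of the control MCAM-medium libraries are exact mirrors. The correlations therefore cannot decide whether replicate numbers pair the libraries, and the main fits used no pairing. Alternatives were total-count scaling, loess offsets, no filter, DESeq2 1.42.0, only the groups compared, all 22 libraries in 1 fit, genes without flanks, a replicate block, leaving out each library and, chosen after seeing the data, leaving out the 3 libraries of mostly even counts. Of marker lists, immune and Leydig lists had 1 of 5 genes with a gene-end peak each, peritubular or endothelial 3 of 5, spermatocyte 8 of 8 and undifferentiated 7 of 7.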

Additional observations from a re-analysis of the deposited data

Results flagged for a closer look

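Among 20 values examined in the 5 later libraries (library shares and named peaks), 1 had a library far from the others: at H2bc3/H3c3, an H2B and an H3 gene with a shared peak, replicate 2 of the later germ cells measured 9.29 CPM, while the other 4 lay between 5.17 and 5.56 CPM. Chance flags about 1 in 20 groups. The value remained far below the 49.8 to 68.1 CPM of control KIT-positive libraries.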

How the results depend on the processing

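Among called values given by name, refits kept the call of 54 peaks 676 times and lost it 37 times, and that of 35 supply-list genes 440 and 25 times, with no reversal. Among uncalled ones, some estimates changed sign between refits. For H1f6 peak 2 between control KIT-positive and MCAM-high cells, the refits ranged from -0.838 to 0.0844, above 0 without control MCAM-high replicate 3. Its mean deletion effect ranged from -0.0365 to 0.330, below 0 without deleted MCAM-high or KIT-positive replicate 3. H2az1 in later cells ranged from -0.482 to 0.251. It was above 0 without control KIT-positive replicate 3, the library of mostly even counts in that fit. With loess offsets it was at 0.145 and with DESeq2 at 0.0229. Npat in deleted KIT-positive cells passed with only the groups compared (0.52) and without deleted MCAM-high replicate 1 (0.79). Counts of higher replication-dependent peaks kept within 1.5 times of the main count in the full-library alternatives, except for later germ cells: 6 with loess offsets and 5 with DESeq2 against 3. Counts of lower peaks were small and moved more. Control KIT-positive minus MCAM-high had 7 lower with total-count scaling. Control KIT-positive minus MCAM-medium had 1 lower with only the groups compared and 1 without the libraries of mostly even counts. Deleted KIT-positive minus MCAM-high had 0 lower without a filter, with the replicate block and without the libraries of mostly even counts. The replicate block otherwise gave 15 higher and 2 lower, 10 and 2, 0 and 0, and 20 higher for the KIT and MCAM contrasts in the order of the report, and 0 for the deletion. Whether replicate numbers pair the libraries could not be decided.

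Leaving out each library in turn gave, for control KIT-positive minus MCAM-high, 12 to 16 higher and 1 to 6 lower; against MCAM-medium, 7 to 12 higher and 0 to 2 lower; in deleted cells, 14 to 19 higher and 0 to 1 lower; and in later cells, 33 to 37 lower and 2 to 4 higher. Every deletion contrast and control MCAM-medium minus MCAM-high stayed at 0 in all fits run. H4c18/H2ac24 lost its call in deleted KIT-positive cells in 5 fits and H4c17 in 2. Peaks with under about 10 CPM carried the widest SE.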
